A study of Mus musculus with 3 samples.

Results

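Chemokine receptors are the family of cell-surface proteins through which leukocytes read gradients of chemokines, and 8 of their genes are described here in natural killer cells: Cxcr3, Cxcr4, Cxcr5, Cxcr6, Cx3cr1, Ccr1, Ccr2 and Ccr7. They were taken by name and are 8 of 21911 protein-coding genes in the annotation. The rule uses no measured value, but the genes were named with earlier results of these data known. DNase-seq was carried out on natural killer primary cells of adult male B6CASTF1/J mice, 2 months old, a first-generation cross of the C57BL/6 and CAST strains. There is 1 group with 3 biological replicates, no treatment is named, and the labels give no sort or gate for the cells. The replicates differ in biosample but share their donor label, and no label names separate animals, so their spread may be technical in origin.

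In DNase-seq the nuclease cuts DNA that is not wrapped in nucleosomes. A peak is a stretch with many cuts, and a footprint is a short stretch inside it that is cut less often. Chemokine receptors are G protein-coupled receptors with several membrane passes that signal through inhibitory G proteins, and arrestins and receptor kinases end the signal. Which receptors a natural killer cell carries helps to set where it goes, and the set changes as the cell matures: bone marrow retention through Cxcr4 gives way to receptors for inflamed tissue. Cxcr5 and Ccr7 are best known for guiding B cells and T cells within lymphoid organs.

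For each gene, the window was the gene body with 20 kb on each side. A promoter reached 500 bp to either side of any annotated start of the gene and was open where a peak overlapped it. The deposited signal of a peak has no stated scale common to the libraries, so it is given with its percentile among all peaks of the same library, where 100 is the strongest. Signals were compared between libraries as the centred log2 signal: log2 of the signal minus the median, in that library, over promoters open in all 3. Site positions are in kb from the RefSeq start of the gene in the direction of transcription, with negative values upstream.

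Replicate 1 held 40484 peaks, replicate 2 held 84564 and replicate 3 held 81854, and the footprints numbered 101990, 239483 and 222990 in the same order. What 1 step of the signal stands for is not stated, so read depth is unknown and no detection limit can be given for a site missing from a library. The cell type label was checked against marker promoters. All 10 natural killer markers were open in replicates 2 and 3, and 7 of 10 in replicate 1 (not Klrb1c, Klrd1 and Tbx21). Of the 10 B cell markers, 7, 10 and 9 were open in replicates 1, 2 and 3, so B cell marker promoters were open in these libraries too. Of the 10 T cell markers 3, 8 and 6 were open. Cd3d, Cd28 and Lef1 were open in every replicate, and Cd4 and Cd8a in none. The dendritic cell list had 5, 7 and 6 of 10 open promoters and the monocyte and macrophage list 3, 4 and 4 of 10. In the latter list Cd68 and Cebpa were open in every replicate, and Csf1r and Adgre1 in none. None of the 10 neutrophil markers was open in any replicate. In a bulk library, fewer cells of a type and less open DNA per cell cannot be told apart.

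The sequences of 7 accessible sites, on which the values below turn, are printed first. They are read from the mm10 reference (GRCm38.p6, plus strand, 5′ to 3′), which is C57BL/6J and shows no CAST allele. Capitals mark bases that lay inside a footprint in at least 2 of the 3 libraries. Cxcr4, Ccr7 and Cxcr5 each have the site with the highest mean percentile outside annotated untranslated regions, among those in all 3 replicates, and the other 4 sites were picked after their values were seen. The site of Cx3cr1 that the same rule gives, at 57.0 kb, lies outside the RefSeq model of the gene and is not printed.
Cxcr4 promoter, upstream side, chr1:128592300-128592480: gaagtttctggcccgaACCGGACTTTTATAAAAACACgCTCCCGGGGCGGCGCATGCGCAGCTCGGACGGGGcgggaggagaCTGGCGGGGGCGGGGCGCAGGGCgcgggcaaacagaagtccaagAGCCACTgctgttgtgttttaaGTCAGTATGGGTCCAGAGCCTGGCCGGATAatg
Cxcr4 intron, chr1:128591051-128591350: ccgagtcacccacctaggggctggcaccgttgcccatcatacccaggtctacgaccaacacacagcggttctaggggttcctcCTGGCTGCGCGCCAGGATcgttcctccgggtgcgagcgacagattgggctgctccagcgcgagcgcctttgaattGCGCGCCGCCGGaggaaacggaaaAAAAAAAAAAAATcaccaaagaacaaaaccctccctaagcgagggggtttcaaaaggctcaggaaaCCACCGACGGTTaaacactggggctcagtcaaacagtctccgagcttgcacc
Ccr7 upstream site, chr11:99168161-99168380: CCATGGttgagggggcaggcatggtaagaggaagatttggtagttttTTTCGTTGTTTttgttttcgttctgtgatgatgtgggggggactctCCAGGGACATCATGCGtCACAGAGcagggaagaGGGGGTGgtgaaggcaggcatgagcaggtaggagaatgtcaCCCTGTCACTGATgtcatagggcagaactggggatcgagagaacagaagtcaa
Ccr7 intron, chr11:99150021-99150240: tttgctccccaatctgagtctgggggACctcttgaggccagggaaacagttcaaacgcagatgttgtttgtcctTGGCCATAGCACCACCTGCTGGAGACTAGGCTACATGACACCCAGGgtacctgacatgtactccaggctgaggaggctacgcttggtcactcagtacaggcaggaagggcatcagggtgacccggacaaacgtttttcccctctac
Cxcr5 window, in an intron of Bcl9l, chr9:44502121-44502320: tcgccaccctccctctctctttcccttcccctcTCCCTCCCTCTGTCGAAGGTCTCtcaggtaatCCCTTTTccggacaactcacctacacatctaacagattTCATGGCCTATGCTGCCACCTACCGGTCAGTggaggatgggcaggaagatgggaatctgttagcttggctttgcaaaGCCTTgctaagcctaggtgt
Cxcr3 upstream site, chrX:101737251-101737550: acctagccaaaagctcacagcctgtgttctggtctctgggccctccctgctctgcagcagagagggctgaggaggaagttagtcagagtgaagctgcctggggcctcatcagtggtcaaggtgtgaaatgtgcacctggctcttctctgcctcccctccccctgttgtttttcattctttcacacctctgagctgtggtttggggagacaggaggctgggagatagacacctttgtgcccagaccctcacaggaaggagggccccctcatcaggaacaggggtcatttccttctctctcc
Cx3cr1 upstream site, chr9:120073261-120073460: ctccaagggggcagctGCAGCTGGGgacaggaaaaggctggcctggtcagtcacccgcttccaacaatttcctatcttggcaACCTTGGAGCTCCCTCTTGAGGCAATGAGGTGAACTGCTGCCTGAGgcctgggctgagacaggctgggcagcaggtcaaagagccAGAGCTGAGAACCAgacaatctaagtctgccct

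The printed stretch of the Cxcr4 promoter has the most footprinted bases of these sites, 115 of 181, and 90 of them lay in a footprint in all 3 libraries. The Cxcr3 site is at the other end, with 0 of 300 bases in a footprint shared by any pair of libraries, although replicates 2 and 3 each held 2 footprints at the site. Letters of known motifs were searched on both strands. The Cxcr4 promoter stretch held 3 GC boxes (GGGCGG), of which 2 lay wholly in capitals. At the Cxcr5 site a match to the core letters of the CTCF motif lay wholly in capitals, 12 of 12 bases. The Cxcr3 site held 2 T-box matches (AGGTGTG), 1 RUNX match (TGTGGT) and 2 matches to AGGAAG, the ETS form, none of them in capitals. At the Cx3cr1 site the letters CAGCTG, a palindrome bound by E proteins, occurred 2 times side by side, and 1 of these lay wholly in capitals. A match is a description of letters and not evidence of binding.

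Over the family, promoters were open in all 3 replicates at 3 of the 8 genes, Cxcr3, Cxcr4 and Ccr7, or 37.5%, where 52.4% of all protein-coding genes were. By replicate, 3, 7 and 7 of the 8 were open in replicates 1, 2 and 3, against 52.8%, 60.1% and 59.3% of all genes. Cxcr5, Cxcr6, Cx3cr1 and Ccr1 were open in replicates 2 and 3 and not in replicate 1. Of all 21911 protein-coding genes, 12693 were open in replicates 2 and 3, and 11490 of these in replicate 1 as well. Ccr2 alone of the 8 had no promoter peak in any replicate, as had 38.4% of all genes.

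**Figure D1:**
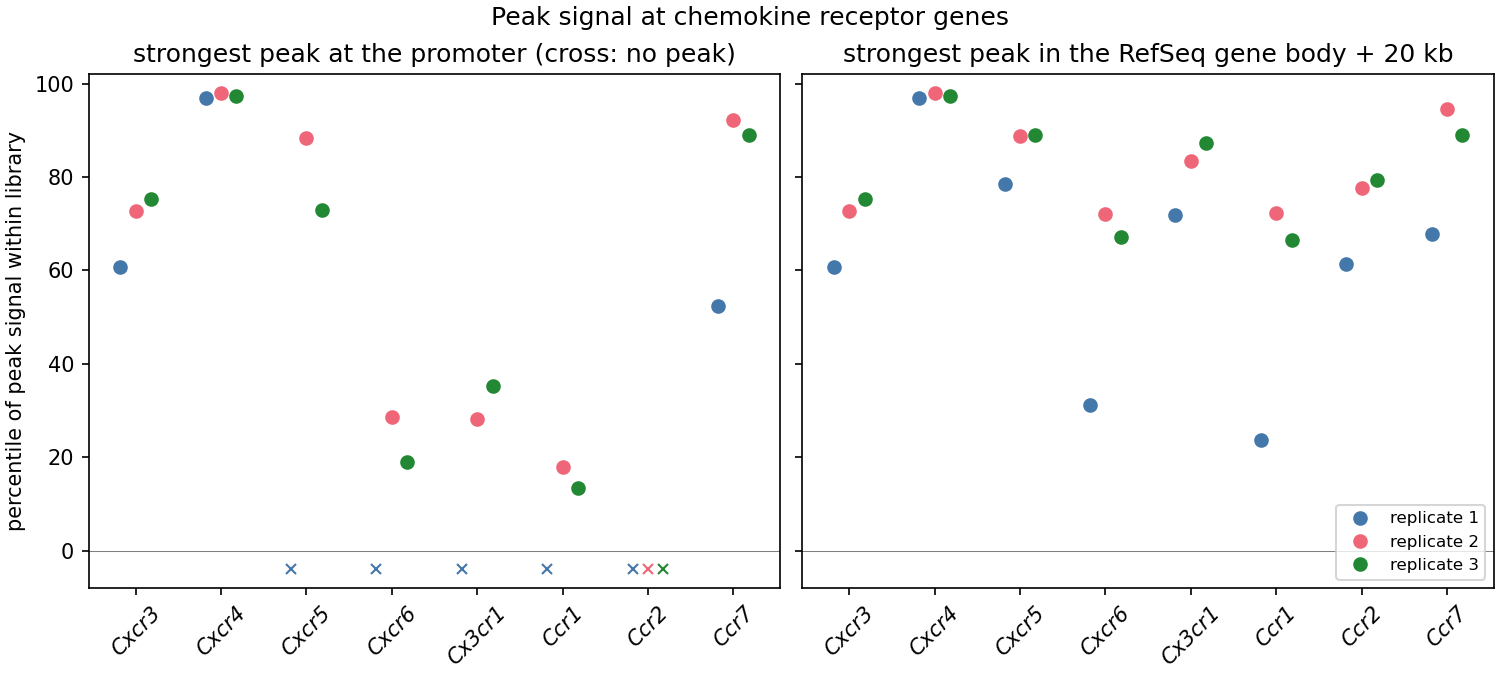
Percentile of the strongest peak at the promoter (left) and in the RefSeq gene body with 20 kb on each side (right) for each gene, with 1 point per replicate and a cross where there was no peak. Cxcr4 sits between 97.0 and 97.9 in all replicates, and the promoters of Cxcr6, Cx3cr1 and Ccr1 sit between 13.5 and 35.2 in replicates 2 and 3.

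Cxcr4, the receptor for CXCL12 that holds immature lymphocytes in the bone marrow, had the strongest promoter of the 8 genes in every replicate. Its signal was 8.0, 16.3 and 15.4 in replicates 1, 2 and 3, at percentiles 97.0, 97.9 and 97.3 (mean 97.4 ± 0.45, SD, n = 3). On the centred scale the 3 values were 1.17, 1.15 and 1.03, so the replicates lay close together. Ccr7, the receptor for CCL19 and CCL21 that brings lymphocytes into lymph nodes, had promoter signals of 1.13, 7.38 and 5.66, at percentiles 52.5, 92.3 and 88.9. Replicate 1 stood far below the other two here, and the mean of 77.9 has an SD of 22.1. Cxcr3, the receptor for the interferon-induced chemokines CXCL9 and CXCL10, had signals of 1.40, 1.86 and 2.29, at percentiles 60.8, 72.7 and 75.3 (mean 69.6 ± 7.72). The order of Ccr7 and Cxcr3 was not the same in all replicates: Cxcr3 was above Ccr7 in replicate 1 and below it in replicates 2 and 3, and their spreads overlap.

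Among promoters open only in replicates 2 and 3, Cxcr5 was the strongest. Cxcr5, the receptor for CXCL13 that leads B cells into follicles, had a signal of 4.85 in replicate 2 and 2.03 in replicate 3, at percentiles 88.3 and 72.9. The other promoters of this kind were weak in both. Cxcr6, the receptor for CXCL16 found on liver-resident lymphocytes, had 0.48 and 0.40 (percentiles 28.7 and 19.0). Cx3cr1, the fractalkine receptor of mature natural killer cells and monocytes, had 0.48 and 0.59 (28.1 and 35.2). Ccr1, a receptor for CCL3 and CCL5, had 0.38 and 0.35 (18 and 13.5), the lowest of the open promoters in both replicates. A second deposited readout, the false discovery rate (FDR) of the cut rate along the genome, was also read at the promoters. At the Ccr2 promoter no interval reached an FDR of 0.05 in any replicate, and the promoters without a peak in replicate 1 had none there either. The −log10 of the lowest FDR was 71.3, 140 and 85.1 at Cxcr4 and 2.45 and 2.22 at Ccr1 in replicates 2 and 3.

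In the windows of the 8 genes together, replicates 1, 2 and 3 held 49, 103 and 99 peaks and 107, 344 and 297 footprints. The peaks were 0.121%, 0.122% and 0.121% of each library's peaks, so in these GENCODE windows their number kept pace with the length of the list. With the RefSeq models described below there were 28, 67 and 67 peaks, a smaller part of the list in replicate 1 than in the other libraries. Of the footprints, 88.8%, 85.2% and 90.2% lay inside peaks. There were 2.18, 3.34 and 3.00 footprints per peak in these windows, against 2.52, 2.83 and 2.72 over the whole libraries, lower in replicate 1 and higher in the other two. The strongest peak of a window had a median percentile of 64.6, 84.9 and 84.2 over the 8 genes, below the median of 77.2, 88.7 and 88.0 over the windows of all protein-coding genes in each replicate.

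Overlapping peaks of the 3 libraries were merged into 115 regions. Of these 46 were found in all 3 replicates, 39 in a pair and 30 in 1. All 39 regions in a pair were in replicates 2 and 3, so no region was shared by replicate 1 and only 1 other library. Over the whole genome 35.3% of regions were found in all 3 replicates. Each of the 8 windows had at least 1 region in all 3, as did 72.3% of all gene windows. By position, 7 regions lay at promoters of the 8 genes and 14 at promoters of other genes, 9 in exons, 46 in introns and 39 between genes. Regions found in all replicates were 3, 10, 3, 17 and 13 in that order, so neighbouring genes' promoters gave more of them than the receptors' own.

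**Figure D2:**
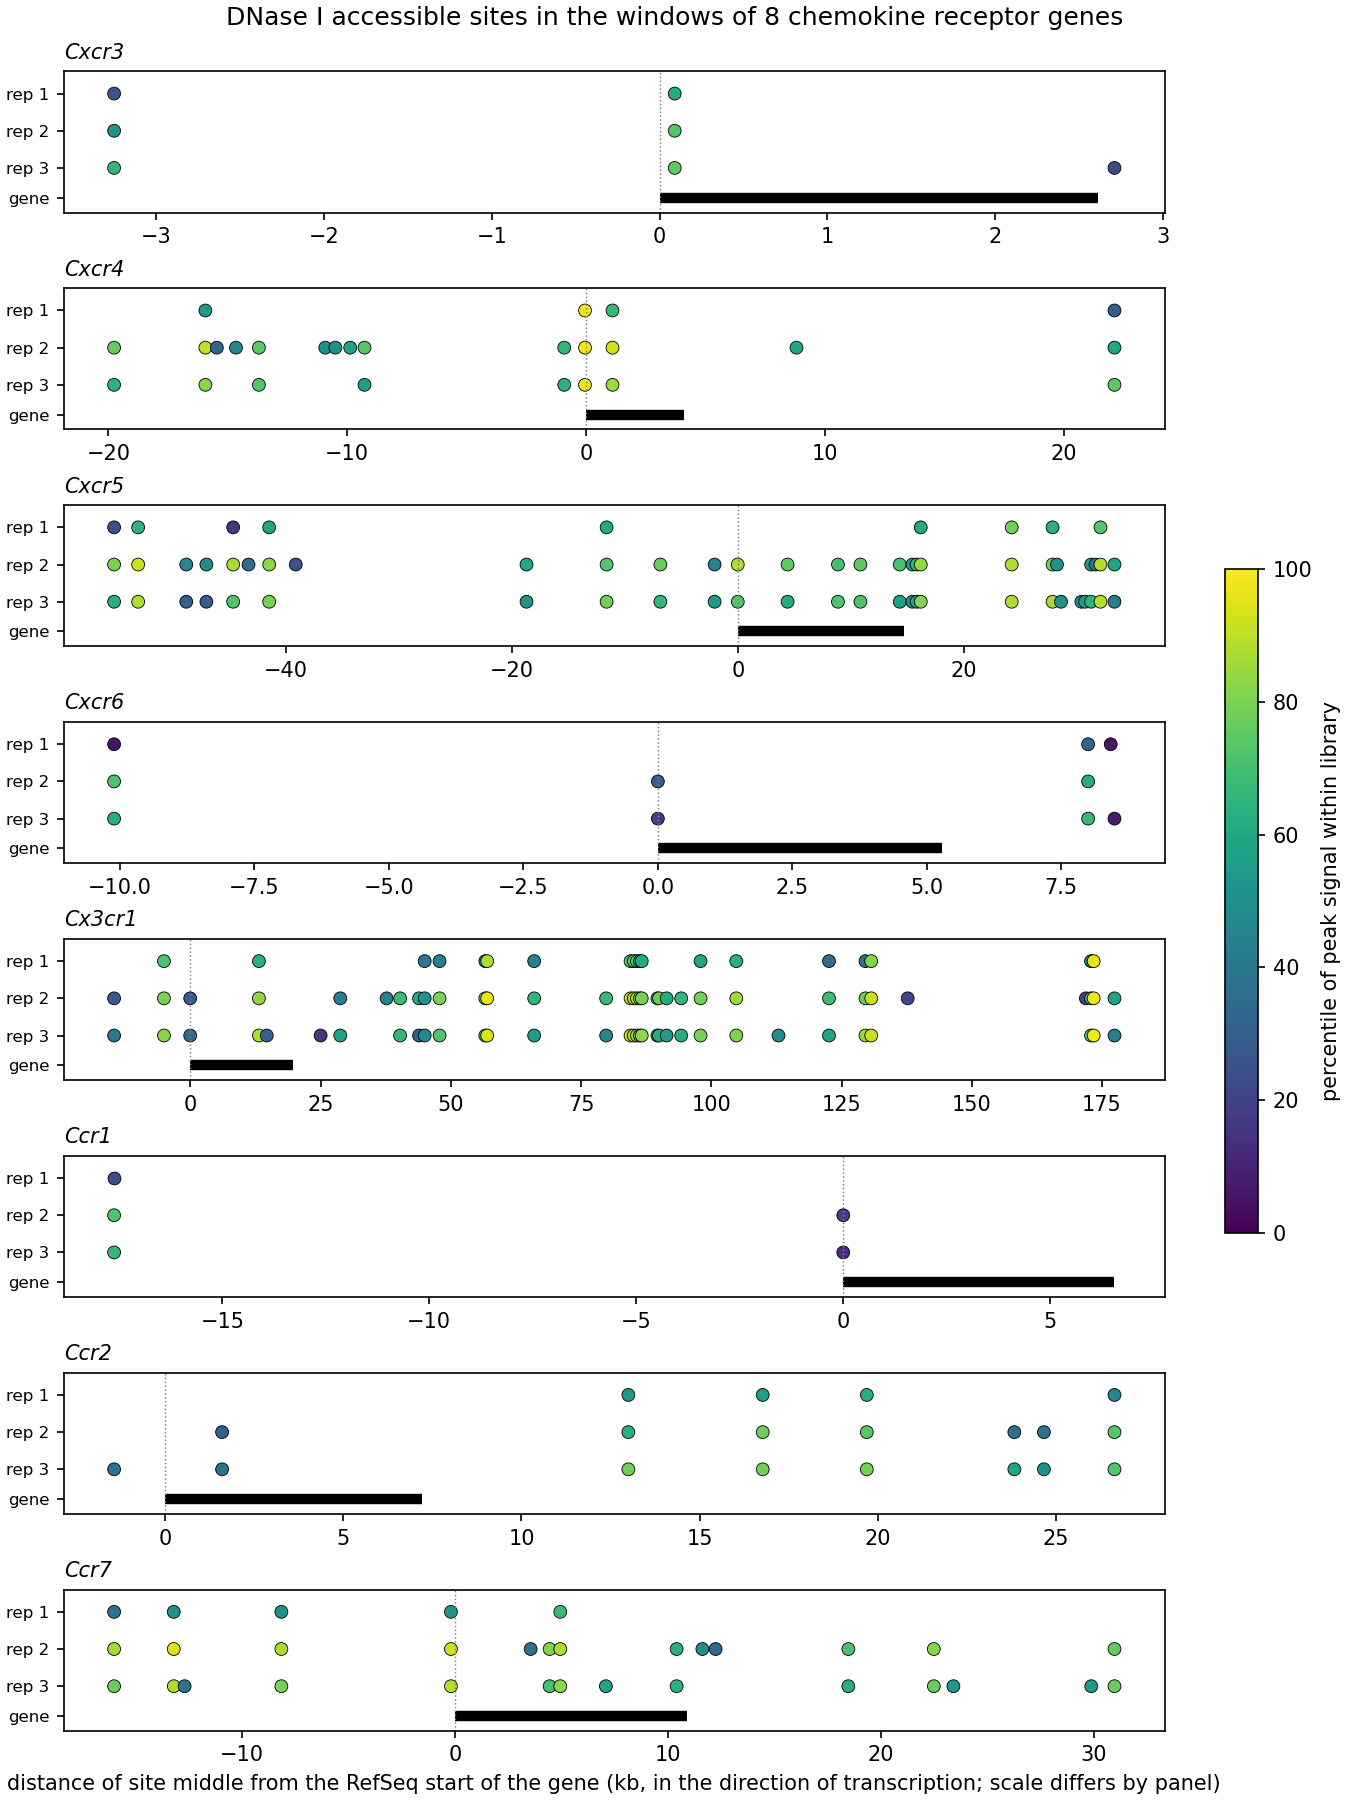
Positions of accessible sites in the window of each gene, by distance of the site middle from the RefSeq start (kb, direction of transcription, a different scale in each panel), with 1 row per replicate, colour for the percentile within the library and a black bar for the RefSeq gene body. Of the sites that replicates 2 and 3 share, replicate 1 lacks 4 of 8 at Cxcr4, 14 of 23 at Cxcr5 and 5 of 10 at Ccr7. Over the whole genome, 35126 of the 64695 regions that replicates 2 and 3 share were found in replicate 1 too. The many strong Cx3cr1 sites to the right lie outside the RefSeq gene body.

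The extent of the gene model matters for Cx3cr1 and Cxcr5. In GENCODE Cx3cr1 (ENSMUSG00000052336.7) spans 168.3 kb of chromosome 9, 119901616 to 120069879, whereas the RefSeq model spans 19.6 kb, 120048683 to 120068296. The GENCODE window takes in Csrnp1, Gorasp1, Ttc21a, Wdr48 and Xirp1. It held 19, 33 and 33 peaks in replicates 1, 2 and 3, and the RefSeq window held 2, 6 and 7. The strongest peak of the GENCODE window, at a mean percentile of 97.2 ± 0.84, was the promoter of Wdr48, at 173.4 kb from the Cx3cr1 start. Cxcr5 (ENSMUSG00000047880.15, chromosome 9, 44511787 to 44561877) spans 50.1 kb in GENCODE and 14.7 kb in RefSeq, and its window includes Bcl9l. With RefSeq models the 8 windows together held 28, 67 and 67 peaks and 25 regions in all 3 replicates. The values per gene below use the RefSeq windows, which change little for the other 6 genes.

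Cxcr4 (ENSMUSG00000045382.6, chromosome 1, 128588199 to 128592293, minus strand) had 4, 14 and 9 peaks and 18, 58 and 35 footprints in replicates 1, 2 and 3. Besides the promoter, 3 sites were found in all replicates. The site in the intron at 1.10 kb had signals of 1.70, 8.23 and 4.04, and held 0, 14 and 15 footprints. On the centred scale these were −1.06, 0.16 and −0.90, so replicate 2 stood 1.06 above replicate 3. The upstream site at −15.9 kb had 1.18, 6.35 and 3.50, and was 0.89 higher in replicate 2 than in replicate 3. The downstream site at 22.1 kb went the other way, with 0.71, 1.13 and 2.27, or 0.97 lower in replicate 2. The promoter differed by 0.12 between the same replicates, less than at these 3 sites. Between −19.8 and −9.28 kb lay 3 further sites found in replicates 2 and 3 only, with footprints at each in replicate 2. Not every distal site differed more than the promoter: the site at −13.7 kb differed by 0.02 and the one at −0.92 kb by −0.01.

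Ccr7 (ENSMUSG00000037944.8, chromosome 11, 99144196 to 99155077, minus strand) had 5, 14 and 14 peaks and 10, 49 and 41 footprints. Its 5 sites in all replicates were the promoter, an intron site at 4.95 kb and upstream sites at −8.14, −13.2 and −16.0 kb. The site at −13.2 kb was the strongest of the window in replicate 2, with a signal of 9.82 at percentile 94.6, against 1.06 in replicate 1 and 5.12 in replicate 3. Replicate 1 was the lowest at this site also on the centred scale, with −1.74, 0.42 and −0.56. All 5 sites were lower in replicate 1 than the mean of the other two, by a median of −0.85 on the centred log2 scale. Over the 35126 regions found in all replicates of the whole genome this difference had a median of 0.11, with a 5th to 95th percentile range of −0.64 to 1.11. The intron site differed least, at −0.11.

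**Figure D3:**
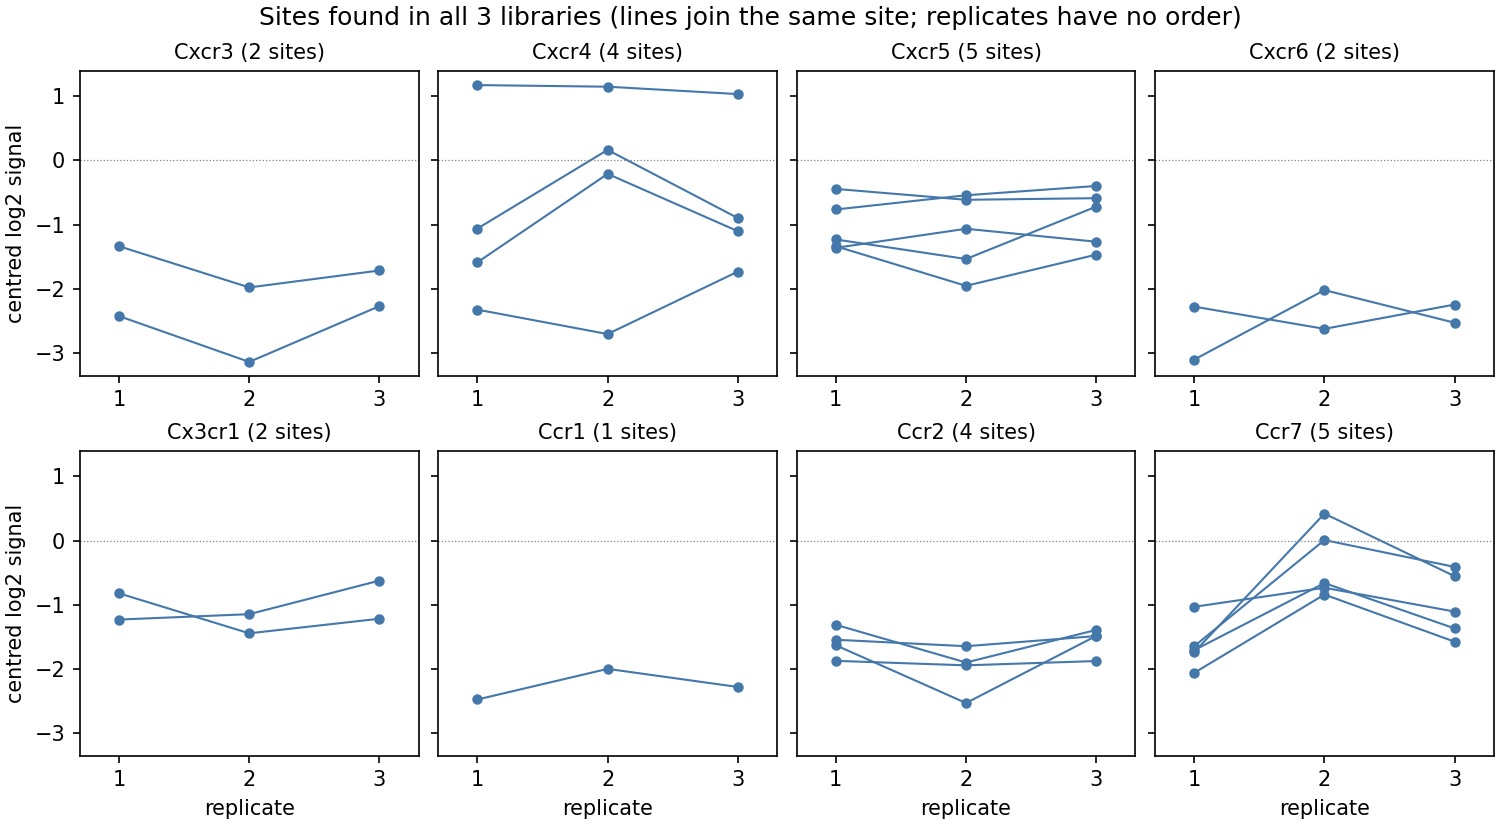
Centred log2 signal of each site found in all 3 replicates, by replicate, in the RefSeq window of each gene, with lines joining the same site. The 5 sites of Ccr7 are lower in replicate 1 than in the mean of the others, the Cxcr4 promoter stays between 1.03 and 1.17, and sites of Ccr2 and Cxcr3 are lowest in replicate 2.

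Cxcr5 had 5, 19 and 20 peaks and 9, 57 and 60 footprints in its RefSeq window. Of the 22 regions there 5 were found in all replicates, and 4 of these lay within Bcl9l, which encodes a cofactor of Wnt signalling. The exception, at −11.6 kb in an intron of the GENCODE model, had signals of 1.40, 1.90 and 2.72. Within the RefSeq gene body of Cxcr5, no site was found in replicate 1. Replicates 2 and 3 shared sites at 4.38, 8.84, 10.8 and 14.3 kb, with signals of 2.08, 1.70, 2.06 and 1.75 in replicate 2 and 1.28, 2.01, 1.96 and 1.09 in replicate 3. The promoter of Cxcr5 had the largest difference between replicates 2 and 3 of all 85 regions in the windows of the 8 genes, 1.29 higher in replicate 2. The printed Bcl9l intron site, at 24.2 kb, was nearly level at −0.03.

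Cxcr3 (ENSMUSG00000050232.6, chromosome X, 101731535 to 101734269, minus strand) had 3, 2 and 3 peaks, and both sites found in all replicates, the promoter and the site at −3.25 kb, were lower in replicate 2 than in replicate 3. The −3.25 kb site had signals of 0.66, 0.83 and 1.56, which put it at percentiles 25.8, 50.3 and 66.7. Ccr2 (ENSMUSG00000049103.14, chromosome 9, 124101950 to 124113557, plus strand), the receptor for CCL2 that draws monocytes to inflamed tissue, had 4, 7 and 8 peaks, where the median over all gene windows was 2, 5 and 4. All 4 of its sites in all replicates lay downstream of the gene body. The nearest of them, at 13.0 kb, had signals of 1.14, 1.27 and 2.69, at percentiles 52.9, 63.4 and 78.3, and its centred log2 difference, replicate 2 minus replicate 3, was −1.05. Inside the Ccr2 gene the only shared site was a weak one at 1.6 kb, with 0.50 in replicate 2 and 0.65 in replicate 3.

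Cx3cr1 had 2 sites in all replicates within its RefSeq window. The upstream site at −5.07 kb had signals of 2.00, 2.70 and 3.23 (percentiles 72.0, 80.1 and 81.4), and the intron site at 13.2 kb had 1.51, 3.32 and 4.88 (63.5, 83.4 and 87.2). Both stood far above the promoter, which reached percentile 35.2 at most. Ccr1 (ENSMUSG00000025804.5, chromosome 9, 123962124 to 123968692, minus strand) had 1 site in all replicates, at −17.6 kb, with 0.64, 1.84 and 1.55. That site lies nearer to the start of Ccr1l1 than to that of Ccr1. Cxcr6 (ENSMUSG00000048521.8, chromosome 9, 123806475 to 123811760, plus strand) lies within the body of Fyco1, and its sites at −10.1 and 8 kb are in introns of that gene. They had 0.41, 1.81 and 1.30, and 0.73, 1.19 and 1.59. For Cx3cr1, Ccr1 and Cxcr6 alike, the strongest site in replicates 2 and 3 was a distal one and not the promoter.

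Replicates 2 and 3 hold similar numbers of peaks, and their centred signals were compared at the 85 regions found in both. The median difference, replicate 2 minus replicate 3, was 0.17, and 50 of the 85, or 58.8%, were higher in replicate 2. Over all 64695 such regions of the genome the median was 0.02 and 52.0% were higher in replicate 2. A difference of 2-fold or more was met by 5 regions in favour of replicate 2, where 2.91% of all regions were, and by 1 in favour of replicate 3, where 3.26% were. These 85 regions are those of the GENCODE windows. Of them 30 lay in the Cx3cr1 window (17 higher in replicate 2) and 23 in the Cxcr5 window (15 higher). The RefSeq windows of these genes held 5 (0 higher) and 17 (9 higher), so the lean toward replicate 2 depends on the gene model. The genes split by direction. In the RefSeq windows, the median was 0.45 at Ccr7 (8 of 10 sites higher in replicate 2), 0.41 at Cxcr4 (6 of 8), 0.30 at Cxcr6 (2 of 3), 0.22 at Ccr1 (2 of 2) and 0.11 at Cxcr5 (9 of 17). It was −0.51 at Ccr2 (0 of 7), −0.57 at Cxcr3 (0 of 2) and −0.44 at Cx3cr1 (0 of 5). In the GENCODE windows the medians of Cxcr5 and Cx3cr1 were 0.24 and 0.11, so the sign for Cx3cr1 depends on the gene model.

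Cell type markers differed between the same replicates. All 10 natural killer marker promoters had a lower centred signal in replicate 2 than in replicate 3 (median −0.93, range −1.35 to −0.15). Of 9 B cell marker promoters open in both, 8 were higher in replicate 2 (median 1.07, range −0.03 to 1.29), and for 6 T cell markers the median was 0.03. The part of these markers' cells in the differences at the receptor genes was not tested. The medians of Ccr7, Cxcr4, Cxcr6, Ccr1 and Cxcr5 lay in the direction of the B cell list, and those of Ccr2, Cxcr3 and, in its RefSeq window, Cx3cr1 in that of the natural killer list. At Cxcr5 the share higher in replicate 2, 9 of 17, was close to the 52.0% of all regions. The medians of Cxcr6, Ccr1 and Cxcr3 rest on 3, 2 and 2 sites. Between replicate 1 and the mean of the other two, the natural killer markers open in all replicates were higher in replicate 1 at 6 of 7 (median 0.28) and the B cell markers at 1 of 7 (median −0.90). The T cell markers were higher in replicate 1 at 2 of 3 (median 0.44, range −0.29 to 3.24), so that direction was not limited to natural killer markers. In that comparison the receptor sites higher in replicate 1 were 2 of 2 at Cxcr3, 4 of 4 at Ccr2, 1 of 2 at Cx3cr1, 1 of 2 at Cxcr6, 2 of 5 at Cxcr5, 1 of 4 at Cxcr4, 0 of 1 at Ccr1 and 0 of 5 at Ccr7. Over all regions found in all replicates 59.0% were higher in replicate 1. Both comparisons share libraries, so they are not independent.

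**Figure D4:**
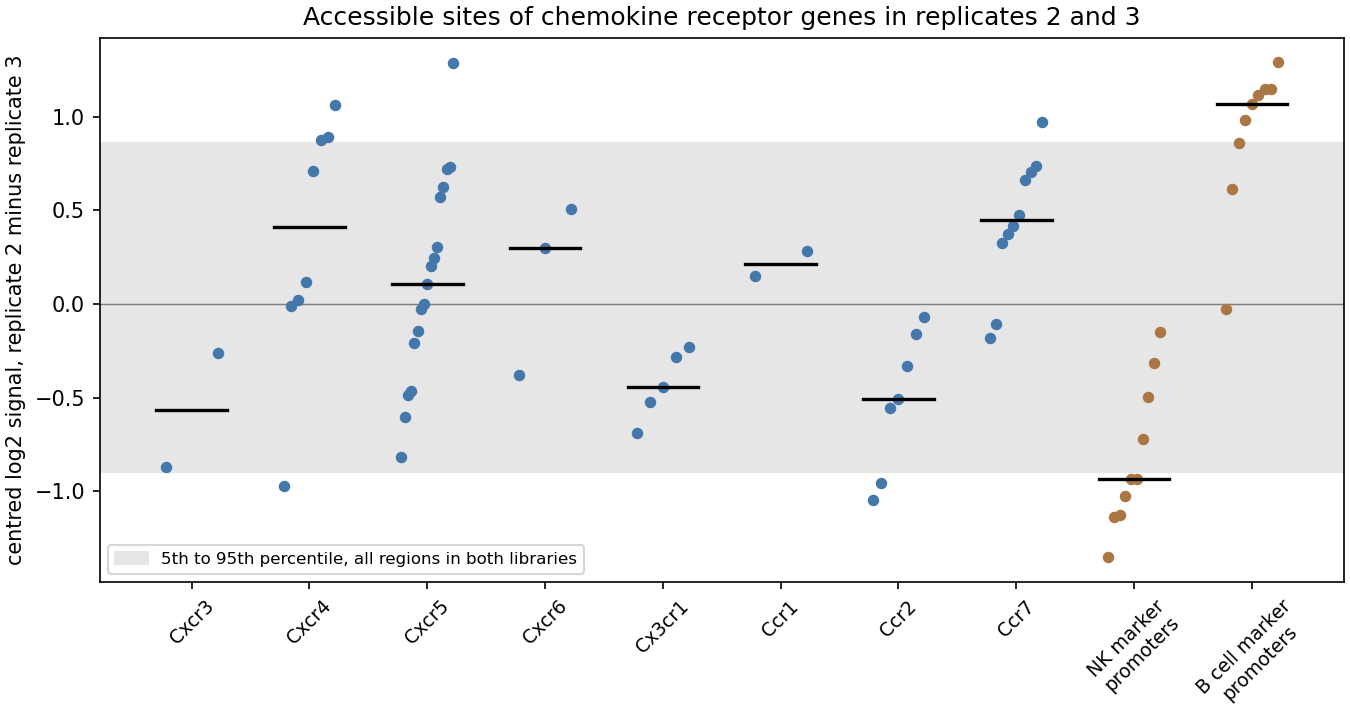
Difference in centred log2 signal, replicate 2 minus replicate 3, for each site found in both (points) in the RefSeq window of each gene, and for marker promoters, with the median as a bar and the 5th to 95th percentile range of all regions, −0.90 to 0.86, in grey. At Cxcr4 4 of 8 sites lie outside the grey band, at every other receptor gene at most 2, and the medians of the natural killer and B cell markers lie outside it.

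By likeness of promoter percentile over the 3 libraries, measured as Euclidean distance among 24 marker genes open in all, Ccr7 lay nearest to Ebf1 (9.10) and Cr2 (9.43), from the B cell list. Cxcr3 lay nearest to Lef1 (2.76), from the T cell list, and Eomes (8.71), from the natural killer list. Cxcr4 lay nearest to Irf8 (7.81) and H2-Aa (11.2), from the dendritic cell list. Both had the highest mean percentiles of the 24 markers (93.1 and 92.9), and Cxcr4 was higher still, at 97.4. Next in mean percentile came Il2rb (91.7) and Prf1 (90.6), from the natural killer list. Each distance rests on 3 libraries.

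Of 15 other chemokine receptor genes, 2 had an open promoter in all replicates (13.3%), and 2, 5 and 4 were open in replicates 1, 2 and 3. Among them Ccrl2, a receptor that binds chemerin without signalling, was open in all, at a mean percentile of 73.7 ± 16.1. Ccr4 and the scavenger receptor Ackr3 were open in replicates 2 and 3, and Ccr9 in replicate 2. No promoter peak in any replicate was found at 10 of the 15, among them Ccr3, Ccr6, Cxcr2 and Xcr1. All 17 listed genes of chemokine receptor signalling were open in every replicate. The highest were Grk6, a receptor kinase, at 99.6 ± 0.09, Rgs2 at 97.7 ± 1.19, Prex1, an activator of Rac, at 97.7 ± 3.15, and the G protein subunit Gnb2 at 96.5 ± 1.49. The median difference between replicates 2 and 3 was −0.08 over the 17.

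Motif letters were counted on both strands in 150 bp centred on each peak, and a base could belong to several motifs. The GENCODE windows were used, and the Cx3cr1 window gave 19 of 49, 33 of 103 and 33 of 99 peaks in replicates 1, 2 and 3. Its RefSeq window held only 2, 6 and 7, so a large part of the shares rests on peaks outside it. Motifs were not counted in the RefSeq windows. In peaks of the 8 windows AGGAAG, the ETS form, was found in 37.7% ± 2.41 (SD, n = 3), against 25.6% ± 2.01 of all peaks. The RUNX letters TGTGGT were found in 22% ± 5.10 against 17.2% ± 2.17, the T-box letters AGGTGTG in 6.0% ± 0.16 against 4.11% ± 0.49, and the POU letters ATGCAAA in 5.98% ± 1.65 against 2.43% ± 0.50. These 4 and FOXO (TGTTTAC, 2.00% against 1.73%) were above the share of all peaks in each replicate. The T-box share rests on 3, 6 and 6 peaks, the POU share on 2, 7 and 7 and the FOXO share on 1, 2 and 2. The GC box GGGCGG was found in 14.0% ± 2.13 against 19.6% ± 4.07, and it, the ETS form CGGAAG and CTCF (14.4% against 18%) were below in each replicate. The motifs of IRF, NF-kB and EBF, the AP-1 letters TGANTCA (a palindrome), the CACCC box CACACCC, the TCF and LEF letters CTTTGAT and the E protein letters CAGCTG were not on 1 side in all replicates. Of the 5 motifs above in every replicate, FOXO was not above in every replicate when whole peaks were searched, and NF-kB was. CTCF was below by little in replicate 1 (18.37% against 18.41%), and with whole peaks it was above there, 22.4% against 21.2%. The GC box and CGGAAG were below in each replicate in both searches, and EBF and the TCF and LEF letters only with whole peaks. In footprints, with at least 50% of a motif inside, AGGAAG and the T-box letters (2, 2 and 1 footprints) were above the share of all footprints in each replicate. RUNX was above in replicate 1 (1.87% against 1.20%) and below in replicates 2 (0.87% against 1.79%) and 3 (2.02% against 2.16%). POU was found in 0, 0 and 1 footprints and FOXO in 0 in each replicate.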

How the data were processed

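DNase-seq was measured in 3 libraries of natural killer cells (replicates 1 to 3 of 1 group). Per the labels the assembly is mm10, with the tools for alignment, peaks and footprints not given in the sources used here. The authors deposited, per library, 2 lists of peaks with a signal value, a list of footprints and intervals with the FDR (q-value) of the cut rate up to 0.05. The longer list of peaks was used. The deposited signal values are whole multiples of a step (0.0118, 0.00651 and 0.00658 in replicates 1, 2 and 3, 100% of peaks within 0.05 of a step), and read depth is unknown. The footprint score is the constant 0.01 and was not used.

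Genes came from GENCODE vM21 and, for comparison, RefSeq, on GRCm38.p6. All coordinates lay inside the 21 reference chromosomes. Peaks and footprints were assigned by an overlap of at least 1 bp in Python 3.11.15 with numpy 2.4.6 and pandas 2.3.3, which was checked on simulated data, and FDR intervals with bedtools 2.31.1. Figures were drawn with matplotlib 3.10.9. All 105 of 105 listed genes matched. A motif counted in a sequence on either strand. With 1 group no test was made, and values are means ± SD over replicates. The members, lists and motifs were chosen with earlier results of these data known. Named genes were the 8 members, other receptors of the family, up to 4 highest and 2 closed genes of every other list, and for each member open in all replicates the 2 nearest markers. Some listed genes are not reported here. Alternatives were promoter width, window, list of peaks, overlap, RefSeq models, lists of equal length, the centring and leaving out each replicate. RefSeq models, equal lengths, the other centring, 4 of the printed sequences and comparisons of replicate 1 with the rest were chosen after seeing the data. Related receptor genes can share near-identical sequence, and the handling of reads with several matches is not stated in those sources.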

Additional observations from a re-analysis of the deposited data

How the results depend on the processing

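Of 56 alternative values of the summary results, 45 stayed within the spread between replicates, or within 1.5 times for a count, and 11 moved. With 50 kb on each side in place of 20 kb, the mean number of peaks was 138 (main value 83.7), of footprints 417 (249), of regions in all replicates 75 (46), and the median percentile of the strongest peak was 92.4 (77.9). With RefSeq models the peaks were 54, the footprints 154 and the regions 25, as the long Cx3cr1 and Cxcr5 models fall away. With the shorter list of peaks the regions were 29. Leaving out each replicate in turn gave 3 to 7 members with an open promoter in all remaining replicates, 2 to 4 other receptors, 46 to 85 regions, 74 to 101 peaks, 202 to 320.5 footprints and a median percentile of 74.4 to 84.5. The values of 7, 4 and 85 are those without replicate 1, which has the shortest list. Centring on all regions found in all replicates moved the difference between replicates 2 and 3 by 0.08 and changed the sign of none of the 8 medians. No paired analysis was possible because there is 1 group. Depth is unknown, so no detection limit can be set for the sites missing from replicate 1.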

Other observations

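Of 5 genes listed with lymphocyte egress, which works against retention by chemokines, 2 had a promoter open in all replicates. That is 40%, against 52.4% of all protein-coding genes. By replicate, 2, 5 and 5 were open in replicates 1, 2 and 3. S1pr4 had a promoter open in all replicates, with signals of 2.45, 5.37 and 6.29 in replicates 1, 2 and 3 (mean percentile 85.5 ± 7.33, SD, n = 3). S1pr1, the main egress receptor of T and B cells, had 1.13, 4.31 and 2.28 (71.5 ± 17.5). S1pr5, the sphingosine phosphate receptor of natural killer cells, and Gpr183, an oxysterol receptor, were open in replicates 2 and 3 only. Between these replicates the centred signal of S1pr1 and Gpr183 was higher in replicate 2, by 0.95 and 0.96, and that of S1pr5 was lower, at −0.63.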
